A study of Mus musculus with 8 samples.

Results

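Bone morphogenetic proteins (BMPs) are secreted ligands of the TGF-β superfamily. They bind paired type I and type II receptor kinases, which phosphorylate Smad1, Smad5 and Smad9, and these enter the nucleus with Smad4. Among the genes most directly switched on there are the *Id* genes, whose proteins bind E proteins and keep them from DNA, and *Smad6* and *Smad7*, whose proteins feed back to block the receptors. In the early heart, BMPs take part in specifying cardiac mesoderm, in patterning the atrioventricular canal and outflow tract and in the growth of the ventricular wall.

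The 10 genes described here are the 5 ligands *Bmp2*, *Bmp4*, *Bmp5*, *Bmp7* and *Bmp10* and 5 targets, *Id1*, *Id2*, *Id3*, *Smad6* and *Smad7*. They were named by symbol among the 49315 genes in the count tables, with earlier results of these data known. Poly-A selected RNA-seq was performed on entire hearts at embryonic day (E)9.5, from wild-type embryos (4 libraries) and embryos homozygous for Tbx20EH1Mut (4 libraries), with 3 hearts pooled in each library. Tbx20 is a T-box transcription factor of the developing heart, and Tbx20EH1Mut is a germline substitution of 2 residues in its engrailed homology 1 (EH1) domain, through which Tbx20 binds TLE corepressors. Because the change is in the germline, all cells carry it, including those outside the myocardium. The comparison asks how the messages of the ligands, and those of the genes that respond to them, differ between the genotypes. In whole-heart RNA, fewer cells of a type and less RNA per cell cannot be told apart.

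Total counts on genes ranged from 33359322 to 49523086 per wild-type library and from 36250675 to 38357025 per Tbx20EH1Mut library. Levels are given as CPM, the count of a gene scaled to a fixed library size after TMM correction. A gene counted as called where the edgeR quasi-likelihood test, adjusted over the 17163 genes left by a filter on low counts, gave 0.05 or less. *Tbx20* itself was lower in Tbx20EH1Mut hearts (log2 fold change -0.46, standard error 0.133, edgeR adjusted p = 0.0273), although the adjusted p rose to between 0.063 and 0.0726 without wild-type replicate 3 or 4 or Tbx20EH1Mut replicate 1 or 2. The count tables do not show the substitution. Libraries of 1 genotype were not equal in make-up. The mean log2 level of genes with under 1500 exon bases was taken relative to that of genes with over 5000. Each was set against the mean of all libraries. This short-to-long difference was 0.191, -0.694, -0.157 and -0.142 in wild-type replicates 1 to 4. In Tbx20EH1Mut replicates 1 to 4 it was 0.133, 0.124, 0.299 and 0.245. It was positive in every Tbx20EH1Mut library and negative in wild-type replicates 2, 3 and 4, so it differed in part by genotype.

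All 10 genes passed the filter, and 7 of them were called, 4 higher and 3 lower in Tbx20EH1Mut hearts. Across all genes tested, 29.3% were called, 14.0% higher and 15.3% lower. Of the ligands, *Bmp4* rose and *Bmp2* and *Bmp5* fell, and *Bmp7* and *Bmp10* were not called. Of the targets, *Id1*, *Id3* and *Smad7* rose, *Smad6* fell and *Id2* was not called. The 4 libraries of each genotype did not overlap for 6 of the 10 genes, against 30.5% of all genes tested. The median log2 fold change was -0.105 over the ligands and 0.51 over the targets, beside 0.005 over all genes tested.

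**Figure D1:**
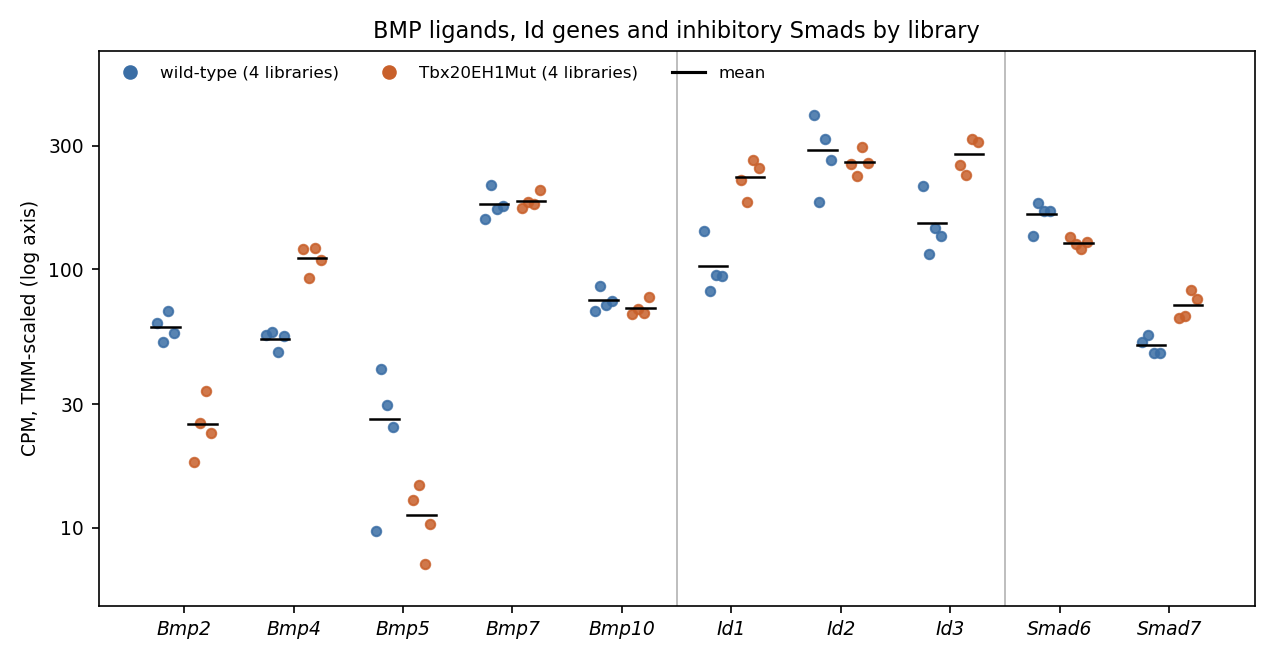
Level of each gene in each library, as TMM-scaled CPM on a log axis, with wild-type libraries in blue, Tbx20EH1Mut libraries in orange and a bar at each mean of 4 libraries. The genotypes are apart for *Bmp2*, *Bmp4*, *Id1*, *Id3*, *Smad6* and *Smad7* and overlap for *Bmp5*, *Bmp7*, *Bmp10* and *Id2*.

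*Bmp2* (ENSMUSG00000027358, chr2:133552159-133562885 of GRCm38, plus strand) encodes a ligand that marks the atrioventricular myocardium and acts on the endocardium to start cushion formation. Wild-type hearts held 62.2, 52.1, 69.0 and 56.7 CPM of it (replicates 1 to 4, in that order throughout), and Tbx20EH1Mut hearts 18.0, 25.5, 33.8 and 23.2 CPM. The highest Tbx20EH1Mut library was well below the lowest wild-type library, and the lowest value of all was in Tbx20EH1Mut replicate 1. *Bmp2* was 2.39-fold lower (log2 fold change -1.26, standard error 0.183, edgeR adjusted p = 0.00132). Its call held in each of the 8 fits that left out 1 library, with log2 fold changes from -1.43 to -1.12.

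*Bmp4* (ENSMUSG00000021835, chr14:46383520-46390669, minus strand), whose ligand is made in the outflow tract, the splanchnic mesoderm around it and the pharyngeal endoderm, went the other way. It was at 55.8, 57.2, 47.7 and 55.2 CPM in the wild-type libraries and at 119, 92.6, 120.5 and 108 CPM in the Tbx20EH1Mut libraries. The wild-type values are within a narrow band, and the lowest Tbx20EH1Mut value, in replicate 2, is far above it. The rise was 2.04-fold (log2 fold change 1.03, standard error 0.117, edgeR adjusted p = 0.000378), and it was called in each of the 8 fits that left out 1 library (0.97 to 1.10 on the log2 scale). *Bmp4* shares 89 exon bases, about 4% of its exon length, with the predicted gene Gm15217 on the opposite strand.

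*Bmp5* (ENSMUSG00000032179, chr9:75775364-75900310, plus strand) encodes a close relative of Bmp7 and was the least abundant ligand. The wild-type libraries gave 9.71, 41.0, 29.8 and 24.6 CPM and the Tbx20EH1Mut libraries 12.8, 14.6, 7.25 and 10.3 CPM. Wild-type replicate 1 was among the Tbx20EH1Mut values, and the other 3 wild-type libraries were above all of them. *Bmp5* was 2.34-fold lower (log2 fold change -1.22, standard error 0.374, edgeR adjusted p = 0.0339), but the exact two-sided permutation test gave p = 0.114. The call held without wild-type replicate 1 (log2 fold change -1.50, adjusted p = 0.00233) and without Tbx20EH1Mut replicate 2, and was lost when any other library was left out, with adjusted p from 0.0612 to 0.0909 and log2 fold changes from -1.28 to -0.91. Nearly all of the wild-type spread is that between replicates 1 and 2, which are also the highest and the lowest of the wild-type libraries in the short-to-long gene difference. With an offset for gene length the log2 fold change was -1.19 (edgeR adjusted p = 0.0225). Of its exon bases, 46.7% also belong to the predicted gene Gm26903 on the opposite strand, which was counted 222 times over all libraries against 6620 for *Bmp5*, and the strand setting of the counting is not given in the sources used here.

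*Bmp7* (ENSMUSG00000008999, chr2:172868012-172940321, minus strand), whose ligand is made widely in heart muscle, was the most abundant ligand by CPM. It lay between 156 and 211 CPM in wild-type and between 172 and 202 CPM in Tbx20EH1Mut hearts, so that the wild-type range took in the whole Tbx20EH1Mut range. The log2 fold change was 0.04 (standard error 0.119, edgeR adjusted p = 0.821), and its sign depended on the library left out and on the scaling. *Bmp10* (ENSMUSG00000030046, chr6:87428994-87437677, plus strand), a ligand of the trabecular myocardium, lay between 69.0 and 86.4 CPM in wild-type and between 66.8 and 77.8 CPM in Tbx20EH1Mut hearts. Its log2 fold change was -0.105 (standard error 0.107, edgeR adjusted p = 0.474). For these 2 ligands the data neither show a difference nor establish that the levels are the same.

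**Figure D2:**
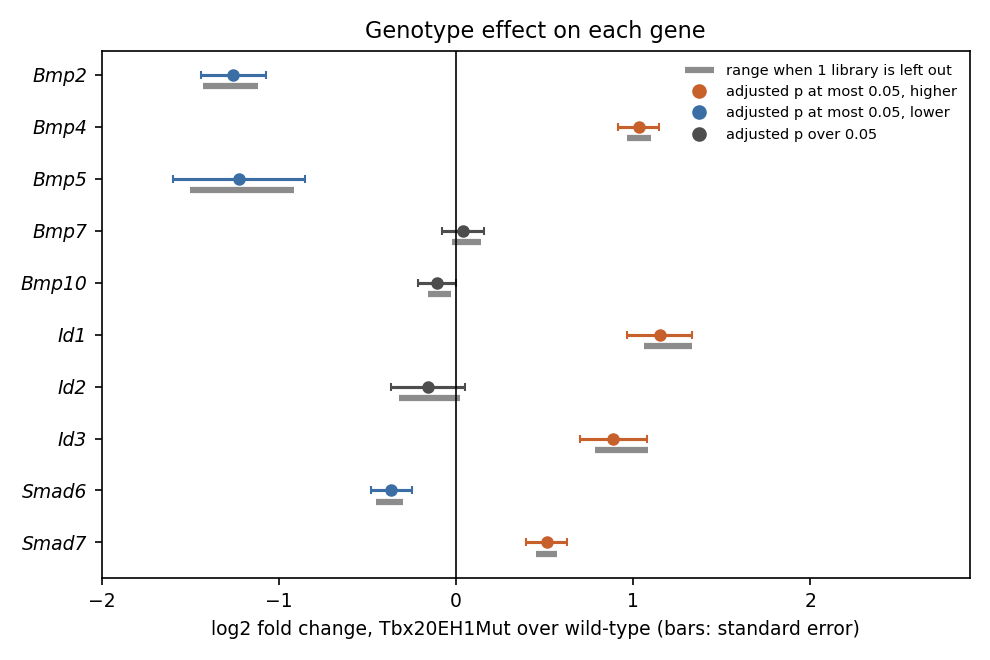
Log2 fold change of each gene in Tbx20EH1Mut over wild-type hearts from edgeR, with the standard error, coloured by call. Grey bars span the estimates obtained when 1 library at a time was left out, and they cross zero for *Bmp7* and *Id2*.

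Levels were compared between the ligands per kilobase of exon (CPM per kb), since longer messages yield more counts. In wild-type hearts *Bmp7* was at 44.5 ± 5.75 CPM per kb (SD, n = 4), *Bmp4* at 24.3 ± 1.93, *Bmp10* at 16.9 ± 1.67, *Bmp2* at 16.9 ± 2.05 and *Bmp5* at 6.53 ± 3.22. *Bmp10* and *Bmp2* overlapped in wild-type hearts, and the other neighbours in that order did not. In Tbx20EH1Mut hearts *Bmp4* led with 49.6 ± 5.81 CPM per kb, its range overlapping that of *Bmp7* at 45.7 ± 3.23, and *Bmp10* followed at 15.7 ± 1.12, *Bmp2* at 7.07 ± 1.85 and *Bmp5* at 2.79 ± 0.789, each below the range of the one before it.

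The sum of the 5 ligand messages was 109 ± 9.62 CPM per kb in wild-type and 121 ± 5.77 CPM per kb in Tbx20EH1Mut hearts, and the genotypes overlapped. The make-up of that sum differed. *Bmp4* went from 22.3% ± 2.33 of it to 40.9% ± 3.77 and *Bmp2* from 15.7% ± 2.84 to 5.84% ± 1.45, both with no overlap between the genotypes. *Bmp10* made up 15.5% ± 0.248 and 13.02% ± 0.921, also with no overlap, *Bmp7* 40.7% ± 1.64 and 37.9% ± 2.47, with overlap, and *Bmp5* 5.84% ± 2.51 and 2.34% ± 0.761, with overlap. The ratio of *Bmp4* to *Bmp2* per kilobase was 1.43, 1.75, 1.11 and 1.56 in the wild-type libraries and 10.6, 5.80, 5.70 and 7.47 in the Tbx20EH1Mut libraries. All 4 Tbx20EH1Mut ratios were more than 3 times the highest wild-type ratio, and Tbx20EH1Mut replicate 1, with the lowest *Bmp2*, had the highest. These shares and ratios restate the 5 levels above and are not separate evidence.

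**Figure D3:**
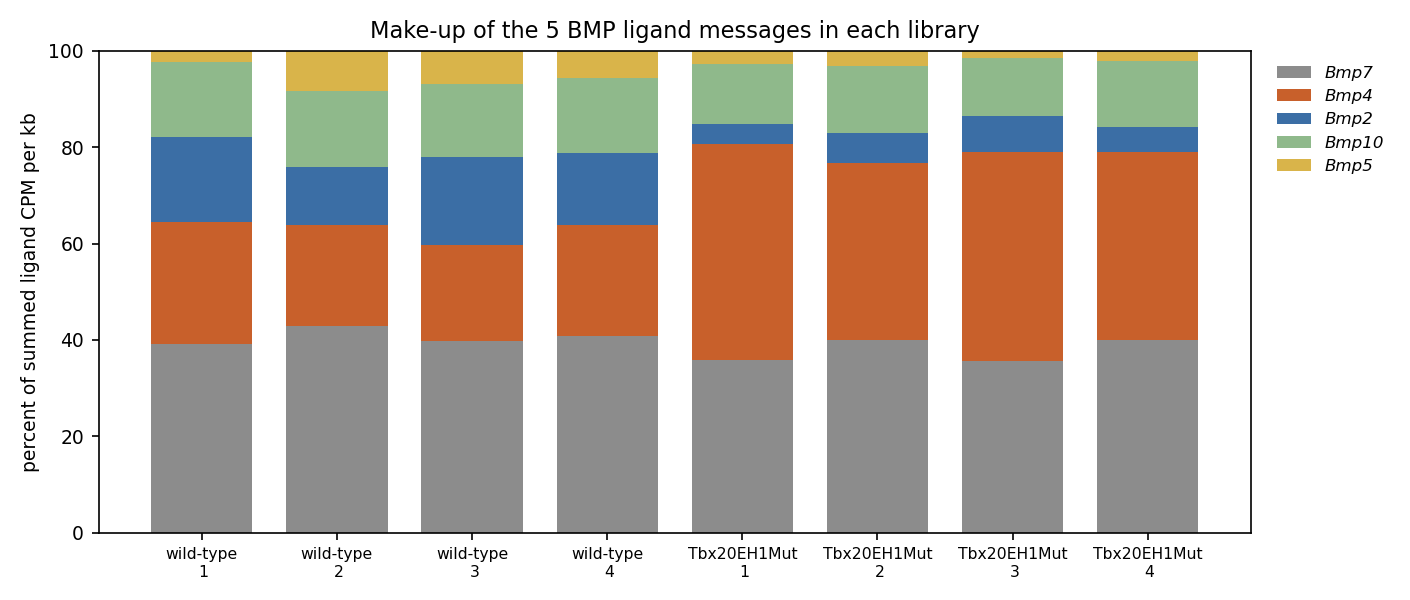
Share of each ligand in the summed ligand CPM per kb, in percent, 1 bar per library. *Bmp4* takes 20.0% to 25.3% of the sum in wild-type and 36.8% to 44.9% in Tbx20EH1Mut libraries, and *Bmp2* 12.0% to 18.1% and 4.23% to 7.59%.

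The targets were led by the *Id* genes, which encode helix-loop-helix proteins without a DNA-binding region. *Id1* (ENSMUSG00000042745, chr2:152736251-152737410, plus strand), made in endocardium and other mesoderm and a standard readout of BMP signaling, was at 140.5, 82.1, 95.4 and 94.3 CPM in the wild-type libraries and at 221, 182, 264 and 247 CPM in the Tbx20EH1Mut libraries. No library overlapped, and wild-type replicate 1 was the highest and replicate 2 the lowest of their genotype. *Id1* rose 2.22-fold (log2 fold change 1.15, standard error 0.183, edgeR adjusted p = 0.00206), with log2 fold changes from 1.06 to 1.33 when 1 library at a time was left out.

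*Id3* (ENSMUSG00000007872, chr4:136143497-136145755, plus strand), a partner of *Id1* in endocardium, was at 209, 114, 145 and 134 CPM in the wild-type libraries and at 254, 232, 319 and 309 CPM in the Tbx20EH1Mut libraries. The genotypes were again apart, but wild-type replicate 1 came close to Tbx20EH1Mut replicate 2. The rise was 1.85-fold (log2 fold change 0.89, standard error 0.191, edgeR adjusted p = 0.00827) and was called whichever single library was left out.

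*Id2* (ENSMUSG00000020644, chr12:25093801-25096092, minus strand), which is also made in neural crest and epithelia, was the most abundant of the 10 genes in wild-type hearts. Its values were 396, 182, 320.1 and 265 CPM in the wild-type libraries and 256, 228, 298 and 258 CPM in the Tbx20EH1Mut libraries. Wild-type replicates 1 and 2 were the highest and the lowest of the 8, so the Tbx20EH1Mut libraries lay inside the wild-type range. The log2 fold change was -0.16 (standard error 0.21, edgeR adjusted p = 0.591), and it was 0.02 (adjusted p = 0.931) without wild-type replicate 1. The ratio of *Id1* to *Id2* per kilobase was 0.40 ± 0.0699 in wild-type and 0.958 ± 0.0728 in Tbx20EH1Mut hearts (SD, n = 4), with no overlap.

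The *Id* messages are short, with 1160 exon bases for *Id1*, 1270 for *Id2* and 1791 for *Id3*. In the short-to-long difference, all Tbx20EH1Mut libraries lay above wild-type replicates 2, 3 and 4. That difference was highest in Tbx20EH1Mut replicate 3 and lowest in wild-type replicate 2. With a gene length offset in the fit, added after the data had been seen, *Id1* was higher by 0.91 on the log2 scale (edgeR adjusted p = 0.00181), *Id3* by 0.74 (adjusted p = 0.0113) and *Bmp4* by 0.90 (adjusted p = 0.000779), while *Id2* was at -0.37 (adjusted p = 0.141). Leaving out wild-type replicates 1 and 2 together, the highest and lowest wild-type libraries in that difference, gave 1.27 for *Id1* (adjusted p = 0.00253) and 1.0 for *Id3* (adjusted p = 0.0051).

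*Smad6* and *Smad7*, the inhibitory Smads, are often read together as feedback targets, and here they moved in opposite directions. *Smad6* (ENSMUSG00000036867, chr9:63953076-64022059, minus strand), which acts mainly on BMP receptors and is prominent in endocardium and outflow tract, was at 134, 181, 168 and 169 CPM in the wild-type libraries and at 133, 125, 119.7 and 128 CPM in the Tbx20EH1Mut libraries. The genotypes did not overlap, but wild-type replicate 1 and Tbx20EH1Mut replicate 1 nearly met. *Smad6* was 1.29-fold lower (log2 fold change -0.37, standard error 0.115, edgeR adjusted p = 0.0373). The call held without wild-type replicate 1 (log2 fold change -0.45, adjusted p = 0.00805) and was lost when any of the other 7 libraries was left out, with adjusted p from 0.0599 to 0.101 and log2 fold changes from -0.38 to -0.30.

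*Smad7* (ENSMUSG00000025880, chr18:75367529-75395935, plus strand), which blocks TGF-β receptors as well as BMP receptors, was at 52.4, 55.9, 47.7 and 47.5 CPM in the wild-type libraries and at 64.5, 66.1, 82.8 and 76.8 CPM in the Tbx20EH1Mut libraries. Every Tbx20EH1Mut library was higher than every wild-type library. The rise was 1.43-fold (log2 fold change 0.51, standard error 0.116, edgeR adjusted p = 0.0101) and was called in each of the 8 fits that left out 1 library. Per kilobase, the ratio of *Smad7* to *Smad6* was 0.224 ± 0.0363 in wild-type and 0.408 ± 0.0642 in Tbx20EH1Mut hearts (SD, n = 4), with no overlap.

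For *Bmp2*, *Bmp4*, *Id1*, *Id3*, *Smad6* and *Smad7* the exact two-sided permutation test of log2 CPM gave p = 0.0286, which is the lowest p this design of 4 and 4 libraries can reach. Any gene whose genotypes do not overlap gets this p, as 30.5% of all genes tested would. For these genes the test therefore restates the lack of overlap and is not separate evidence. The same exact test gave p = 0.686 for *Bmp7*, 0.314 for *Bmp10* and 0.686 for *Id2*.

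Among the targets, *Id2* was at 229 ± 71.2 CPM per kb in wild-type hearts, *Id1* at 88.9 ± 22.1, *Id3* at 84.1 ± 22.9, *Smad6* at 50.8 ± 6.29 and *Smad7* at 11.3 ± 0.896. *Id1* and *Id3* overlapped, and so did *Smad6* and the ligand *Bmp7*. In Tbx20EH1Mut hearts the same order held, with *Id2* at 205 ± 22.5, *Id1* at 197 ± 30.7, *Id3* at 156 ± 23.5, *Smad6* at 39.5 ± 1.74 and *Smad7* at 16.1 ± 1.93 CPM per kb, but *Id1* now overlapped *Id2* as well as *Id3*. *Smad6*, above *Bmp4* and level with *Bmp7* in wild-type hearts, was below the ranges of both in Tbx20EH1Mut hearts.

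The 5 target messages together came to 464 ± 107 CPM per kb in wild-type and 613 ± 75.4 CPM per kb in Tbx20EH1Mut hearts. The genotypes overlapped, since wild-type replicate 1 reached 603 CPM per kb. Summed targets over summed ligands gave 6.08, 2.83, 4.46 and 3.98 in the wild-type libraries and 4.94, 4.59, 5.56 and 5.15 in the Tbx20EH1Mut libraries. The Tbx20EH1Mut ratios lay within the wild-type range, but only because of wild-type replicate 1, and without that library the ranges did not overlap. The mean ratio in Tbx20EH1Mut over that in wild-type hearts was 1.17 with all libraries. It was 1.35 without wild-type replicate 1 and 1.05 without wild-type replicate 2, so its size depended on these libraries.

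Regulatory DNA near the start sites was examined for letters known from Smad and T-box binding, because the targets are classically reached through Smad sites. RefSeq promoter windows of GRCm38.p6, from 250 bases before to 50 bases after the start, were found for 6 of the 10 genes, *Bmp4*, *Bmp5*, *Bmp10*, *Id2*, *Id3* and *Smad6*. *Bmp2*, *Bmp7*, *Id1* and *Smad7* had no entry. Both strands were searched for CAGAC, whose reverse complement is the Smad box GTCTG, for GGCGCC, a GC-rich site that Smad1 and Smad5 bind, for GGCGCC followed after 5 bases by GTCT, the arrangement known from BMP response elements, and for GGTGTGA, the core of a T-box site. The joined pair GTCT and AGAC was added to the search after the sequences had been seen. The matches follow as 30 bases each, 5′ to 3′ in the direction of the gene, with the motif in capitals.
Id3, CAGAC 167 bases before the start, chr4:136143643-136143672, plus strand: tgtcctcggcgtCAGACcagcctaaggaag
Id3, CAGAC on the opposite strand 68 bases before the start, chr4:136143742-136143771, plus strand: ggacccttggcgGTCTGttttgaataaggg
Id2, GGCGCC 231 bases before the start, chr12:25096306-25096335, minus strand: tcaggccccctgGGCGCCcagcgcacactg
Bmp5, CAGAC on the opposite strand 134 bases before the start, chr9:75775219-75775248, plus strand: tagatcactgttGTCTGttacatgcatggc
Smad6, GTCT joined to AGAC across the start, chr9:64022045-64022074, minus strand: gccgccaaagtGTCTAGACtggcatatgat

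CAGAC was thus in 2 of the 6 windows, beside 49.5% of the 32544 distinct windows of all genes, and GGCGCC in 1 of 6, beside 11.9%. The windows of *Bmp4* and *Bmp10* held none of these letters, and no window of the 6 held the spaced pair (0.0737% of all windows) or GGTGTGA (3.95%). The joined pair at the start of *Smad6* is present in 0.215% of all windows. The windows of *Id2* and *Id3* lie partly or wholly in annotated exons of other transcript models. A match is a description of the letters, and binding was not measured here. DNA outside these windows was not searched, so the absence of a motif holds for the windows alone.

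Within a genotype the 10 genes did not vary independently. After the genotype mean was subtracted from log2 CPM, Pearson's r over the 8 libraries was 0.98 between *Id1* and *Id3*, 0.84 between *Id1* and *Id2* and 0.89 between *Id2* and *Id3*. *Bmp7* and *Bmp10* moved together (r = 0.985), as did *Bmp5* and *Smad6* (r = 0.937). *Bmp5* moved against *Id1* and *Id3* (r = -0.953 for both). The points share library, depth and the short-to-long gene difference, *Bmp5*, *Smad6*, *Bmp7* and *Bmp10* have between 3205 and 4490 exon bases, and the part of message length in these correlations was not tested. *Bmp2* and *Bmp4*, the ligands with the firmest changes, showed little relation to each other within a genotype (r = -0.22).

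**Figure D4:**
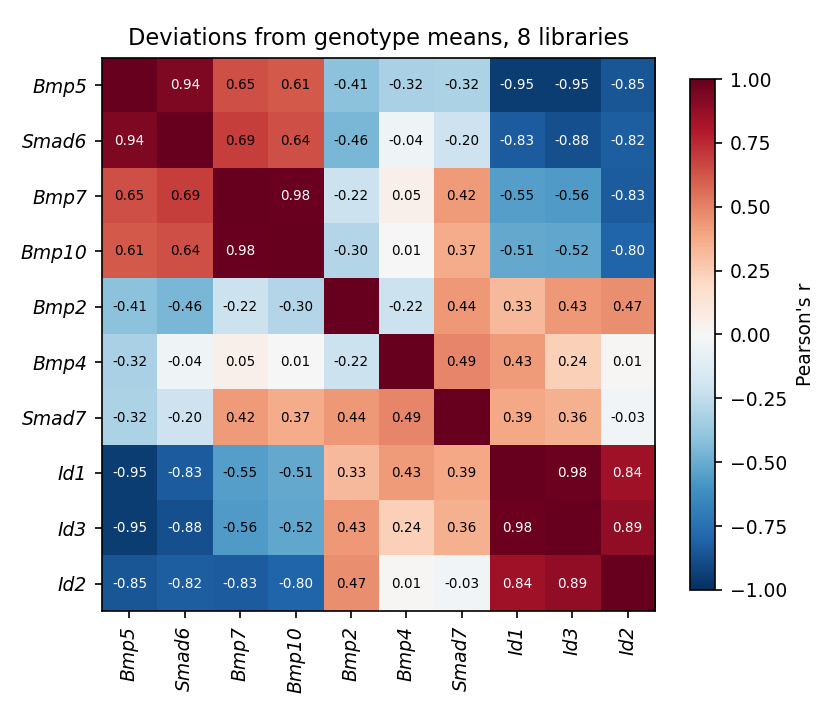
Pearson's r between pairs of genes over the 8 libraries after each genotype mean was subtracted from log2 CPM, from blue (negative) to red (positive). The *Id* genes form one block, with r from 0.844 to 0.979, and *Bmp5*, *Smad6*, *Bmp7* and *Bmp10* form another.

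The genes most like the ligands and *Id* genes over the 8 libraries were sought among 10948 genes averaging 5 CPM or more. The highest Pearson r of log2 CPM was 0.99 for *Bmp2* (with *Kcnq3*), 0.992 for *Bmp4* (*Clec1b*), 0.993 for *Bmp5* (*Inppl1*), 0.987 for *Bmp7* (*Arhgap6*) and 0.944 for *Bmp10* (*Usp32*). Among the *Id* genes it was 0.993 for *Id1* (*Eif4e3*), 0.98 for *Id2* (*Trp53rkb*) and 0.996 for *Id3* (*Zfp811*). With 8 libraries and so many genes, values of this height were found for all 8 of these genes, and they describe likeness of pattern in these libraries alone.

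Around these members, 75 other genes of the pathway were listed by role, of which 66 were tested and 21 were called, 13 higher and 8 lower, beside the 29.3% called among all genes. Their median log2 fold change was 0.04. The count fell to 13 when wild-type replicate 3, wild-type replicate 4 or Tbx20EH1Mut replicate 4 was left out, fits in which the calls over all genes also fell, from 5024 to 3061, 3001 and 3028.

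Of 10 other BMP and GDF ligands, 4 passed the filter on low counts. Only *Gdf2*, the circulating ligand also called BMP9, was called, and its level was low, 0.791 ± 0.104 CPM for wild-type and 0.222 ± 0.141 CPM for Tbx20EH1Mut hearts (log2 fold change -1.81, edgeR adjusted p = 0.0218). The most abundant of them, *Bmp6*, was at 9.24 and 6.38 CPM (adjusted p = 0.316), the wild-type mean being given first here and in the pairs of means that follow.

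All 11 receptors and co-receptors passed the filter, and 2 (18.2%) were called, both lower, while the median log2 fold change of the list was 0.21. The number called ranged from 0 with glmTreat at 0.5 to 6 with DESeq2 and with the cardiomyocyte covariate. Named after its value was seen, *Bmpr1a*, a type I receptor, was at 118 ± 12.7 and 147 ± 7.48 CPM with no overlap (log2 fold change 0.32, edgeR adjusted p = 0.0502). *Hjv*, a BMP co-receptor of muscle, went from 20.1 ± 3.78 to 12.1 ± 1.58 CPM (log2 fold change -0.73, edgeR adjusted p = 0.0103), and *Acvr1*, a type I receptor, from 37.4 ± 3.87 to 28.2 ± 4.06 CPM (-0.41, adjusted p = 0.0414). The most abundant receptor, the endothelial co-receptor *Eng*, was at 176 and 159 CPM (adjusted p = 0.268). Of the 4 signal transducers, the receptor-regulated *Smad1* rose by 0.49 on the log2 scale (adjusted p = 0.0131), and the shared partner *Smad4* rose by 0.59 to 167 ± 22.9 CPM (adjusted p = 0.00842).

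Among 18 tested antagonists and modulators, 5 were higher and 1 was lower. *Crim1*, a membrane protein that binds BMPs, was at 6.43, 7.92, 5.34 and 7.24 CPM in the wild-type libraries and at 13.1, 15.2, 15.0 and 14.2 CPM in the Tbx20EH1Mut libraries (log2 fold change 1.09, edgeR adjusted p = 0.00125), with the genotypes far apart. *Nog*, which encodes the antagonist noggin, fell from 24.3 ± 4.27 to 15.5 ± 1.83 CPM (-0.65, adjusted p = 0.013). *Grem1*, which encodes the antagonist gremlin, was between 0 and 0.204 CPM in wild-type and between 0.625 and 1.81 CPM in Tbx20EH1Mut hearts (adjusted p = 0.00927), on at most 70 counts in a library. *Nbl1* rose by 0.92 on the log2 scale (adjusted p = 0.0136) and *Fstl1*, the most abundant of the list, by 0.75 to 912 ± 302 CPM (adjusted p = 0.0255). The fifth was *Bmper*, named here after its value was seen, at 0.62 (adjusted p = 0.0351).

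Of 7 intracellular regulators, 3 were called. The Smad corepressor *Skil* rose by 0.62 on the log2 scale (edgeR adjusted p = 0.00193) and *Tob1*, which binds Smads, by 0.71 (adjusted p = 0.0211), whereas *Smurf1*, a ubiquitin ligase for Smad1 and Smad5, was at -0.66 (adjusted p = 0.028). *Ski* was the most abundant, at 101 and 77.2 CPM (adjusted p = 0.0885).

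Other transcription factors that respond to BMPs were split. *Msx1*, a homeobox gene, was at 30.1, 30.3, 34.1 and 30.9 CPM in the wild-type libraries and at 18.9, 13.5, 9.81 and 12.0 CPM in the Tbx20EH1Mut libraries, with no overlap (log2 fold change -1.21, edgeR adjusted p = 0.00159). *Hey1*, a Notch and BMP target, was at 68.0, 44.8, 59.9 and 60.2 CPM and at 103, 108, 127 and 117 CPM in turn, again with no overlap (0.97, adjusted p = 0.00125). *Gata4* was lower (-0.49, adjusted p = 0.0319). *Dlx3* was called higher (adjusted p = 0.00933) from 0.371 ± 0.269 to 3.53 ± 2.48 CPM, and its genotypes overlapped. Its Tbx20EH1Mut libraries were uneven, at 6.24, 4.83, 0.688 and 2.36 CPM. Over the alternative fits its log2 fold change ran from 1.03 to 4.47, and it was called in 12 of 13. The source of its rise was not tested. The other 6 had adjusted p from 0.139 to 0.881, among them the most abundant, *Nkx2-5*, and *Id4*, named here as the remaining *Id* gene (log2 fold change -0.27, adjusted p = 0.388).

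Of the E proteins that Id proteins bind, *Tcf4* rose by 0.80 on the log2 scale (edgeR adjusted p = 0.0286), and the most abundant, *Tcf3*, was at 191 and 195 CPM (adjusted p = 0.858). Of 9 tested TGF-β and activin ligands, *Nodal* rose from 0.467 ± 0.188 to 2.46 ± 0.477 CPM (adjusted p = 0.00181), *Gdf11* fell from 31.1 ± 4.0 to 14.3 ± 1.74 CPM (adjusted p = 0.000556), and *Tgfb2*, the most abundant, was at 109 and 102 CPM (adjusted p = 0.645). The calls of *Gdf2*, *Acvr1*, *Fstl1*, *Bmper*, *Smurf1*, *Tob1*, *Gata4* and *Tcf4* were each lost in 3 or more of the 8 fits that left out 1 library, and those of the other 13 were not lost in any.

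**Figure D5:**
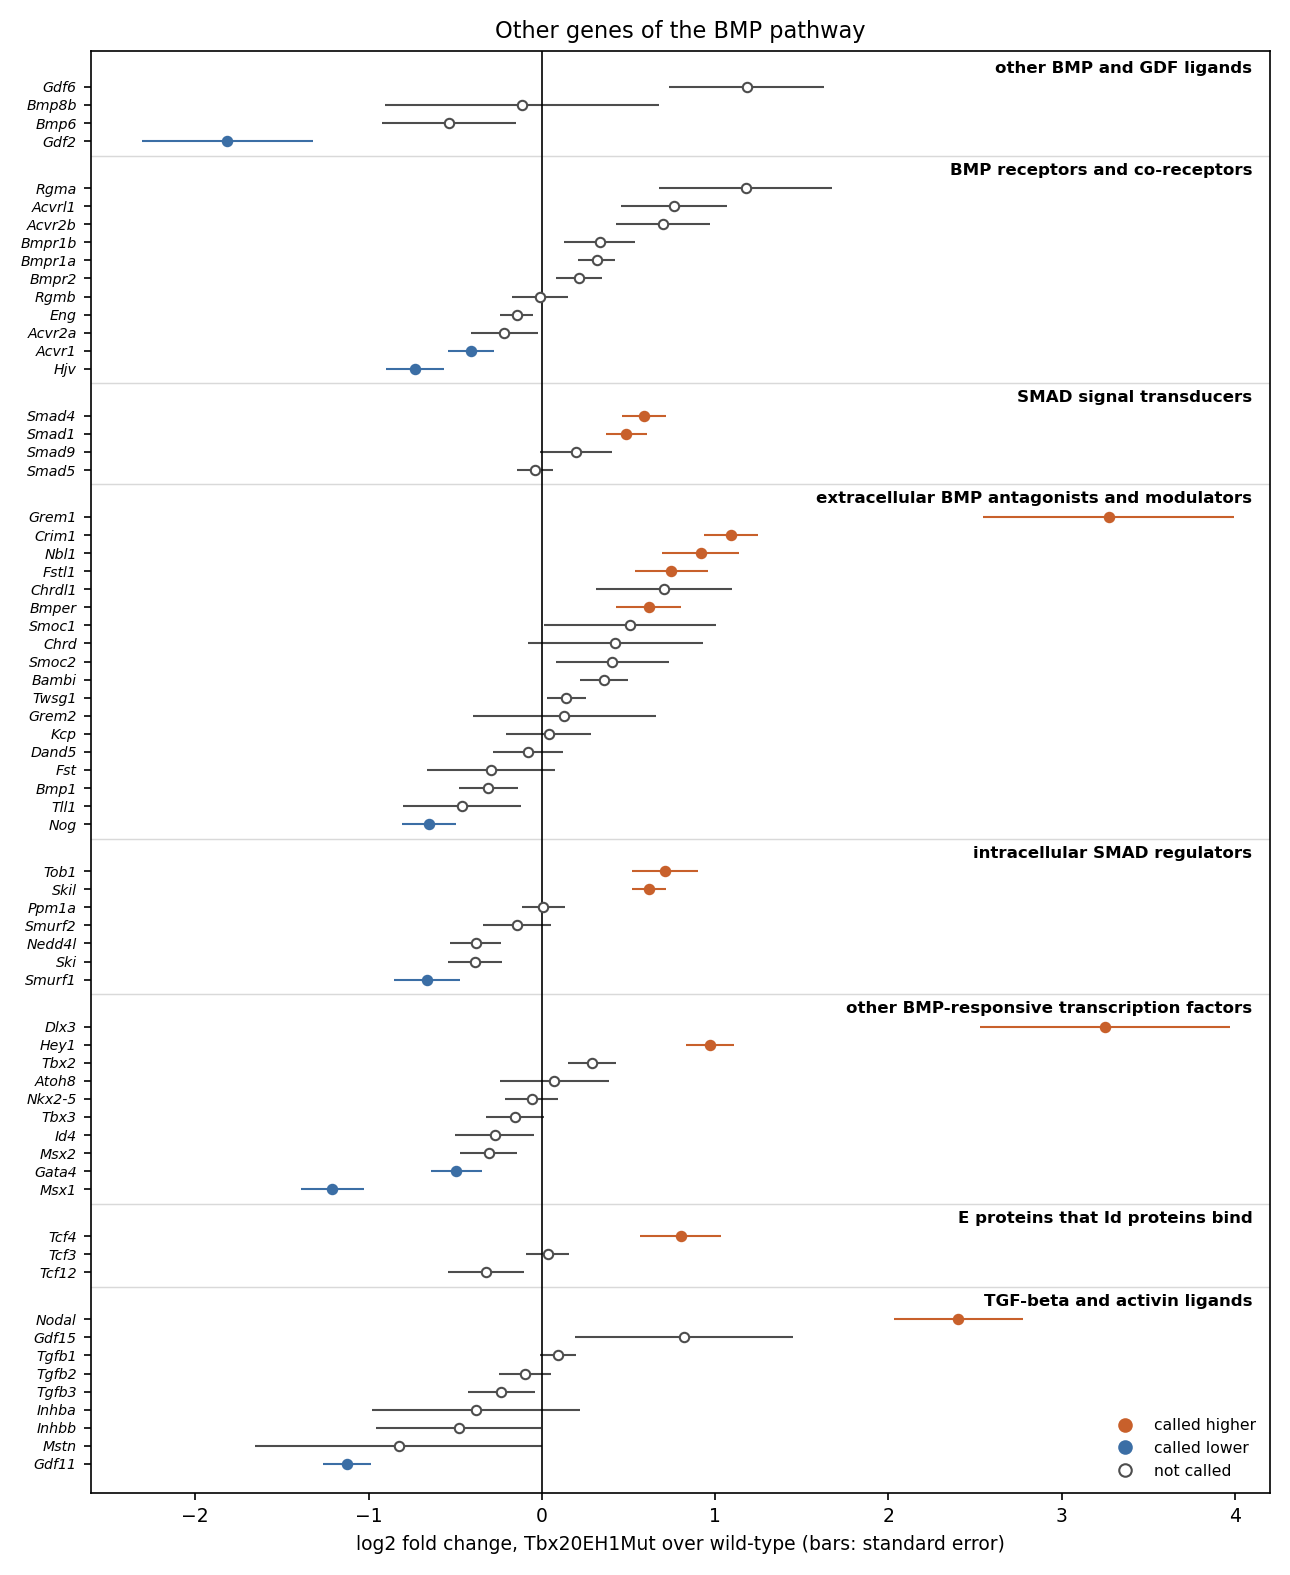
Log2 fold change with standard error for the 66 tested pathway genes, grouped by role and ordered within each group, with called genes filled in orange (higher) or blue (lower). Each group holds estimates on both sides of zero, and 21 of the 66 are called.

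Markers of the cell types that whole hearts could hold were compared in the same fit, and their called shares are to be read beside the 29.3% over all genes (14.0% higher, 15.3% lower). Cardiomyocyte markers summed to between 13480 and 20440 CPM in wild-type and between 15330 and 25670 CPM in Tbx20EH1Mut libraries, with 1 of 8 called (*Actn2*, lower, named after its value was seen), so the libraries are rich in heart muscle RNA in both. Endothelial and endocardial markers, from cells that make much *Id1*, *Id3* and *Smad6*, summed to 654 to 844 CPM and 848 to 928 CPM, so that the sums did not overlap. Of these markers, 3 of 9 (33.3%) were called, all higher, and the median log2 fold change was 0.055. Named after their values were seen, *Kdr* (109 and 176 CPM) and *Pecam1* (83.0 and 118 CPM) rose most in mean level. *Nfatc1*, *Tek* and *Cdh5* went the other way, at -0.42, -0.25 and -0.13 on the log2 scale, and were not called. Foregut and pharyngeal markers summed to 189.7 to 295 CPM and 656 to 892 CPM, with 5 of 10 higher. The keratins *Krt8* and *Krt18* made up 79.1% to 99.4% of that sum in wild-type and 76.9% to 95.0% in Tbx20EH1Mut libraries. All 10 markers had a positive log2 fold change, from 1.61 to 3.48, including the 5 not called, and 3 of the 10 had no overlap between the genotypes. Second heart field markers summed to 78.8 to 104 CPM and 258 to 438 CPM, with 5 of 6 higher. Erythroid markers fell in 6 of 6, from 1078 to 2753 CPM down to 179 to 588 CPM. Neural crest markers summed to 39.1 to 51.9 CPM and 24.7 to 64.2 CPM, most of it *Twist1*, at 41.7 and 37.8 CPM (edgeR adjusted p = 0.635), and *Foxd3* averaged at most 0.053 CPM. Of the 5 tested, edgeR called 0, with 2 at an unadjusted p under 0.05, and DESeq2 called 1. Named after their values were seen, *Dlx2*, *Dlx5* and *Tfap2a* were at 1.81, 2.02 and 2.08 on the log2 scale with adjusted p of 0.139, 0.0599 and 0.0719, and *Sox10* was at -0.96 (adjusted p = 0.352). Somite markers summed to 1.31 to 3.42 CPM and 3.06 to 11.8 CPM, with *Tcf15* higher by 2.59 on the log2 scale (adjusted p = 0.000661), *Meox1* at 1.26 (adjusted p = 0.172) and *Myf5* and *Pax3* averaging at most 0.0783 CPM.

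With the mean log2 level of the foregut markers, in which each gene has equal weight, as a covariate, *Bmp2* was at -0.80 (edgeR adjusted p = 0.0172), *Bmp4* at 0.95 (adjusted p = 0.00513), *Id1* at 1.56 (adjusted p = 0.00295) and *Id3* at 1.39 (adjusted p = 0.004), while *Smad7* kept its size (0.51) and lost its call (adjusted p = 0.0552). *Id2* changed sign, to 0.60 (adjusted p = 0.0644), and *Bmp5* went from -1.22 to -1.95 (adjusted p = 0.0131). With the mean log2 level of the endothelial markers as the covariate, *Bmp5* was at -1.91 (adjusted p = 0.00418), *Id1* was at 1.48 (adjusted p = 0.00233), *Id3* at 1.24 (adjusted p = 0.00515) and *Smad6* at -0.54 (adjusted p = 0.0123). All 10 foregut markers had higher estimates in Tbx20EH1Mut hearts, so the foregut covariate shares variation with genotype, and that fit cannot separate them. Most were also highest among wild-type libraries in replicate 2 and lowest among Tbx20EH1Mut libraries in replicate 3. Those are the libraries with the lowest and the highest short-to-long gene difference, and its part in the foregut fit was not tested. The part of second heart field and erythroid cells in these results was also not tested.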

How the data were processed

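For each library the authors deposited a table of unnormalized counts per Ensembl gene. The submitters' processing notes name Trimmomatic 0.36, STAR 2.5.2b and GRCm38 (mm10), and the libraries were sequenced as paired 150-bp reads. The counting tool and strand setting are not given in the sources used here. Of 49315 genes, 48970 were matched by identifier to a GENCODE M21 symbol.

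Counts were analysed with edgeR 4.0.16 in R 4.3.3, using filterByExpr, TMM scaling and glmQLFit with genotype as the only term, with Benjamini-Hochberg adjustment over 17163 genes. Single values were compared by an exact two-sided permutation test over 70 arrangements. Promoter windows came from RefSeq (GRCm38.p6). The main fit and those with other tools, scalings or filters, a replicate block or a gene length offset were tested on simulated data. There all genes had the same dispersion, and libraries of a genotype differed only in depth and random noise, unlike the libraries here. The fits with a log2 threshold, marker covariates or libraries left out were not simulated. Alternatives used DESeq2 1.42.0 and limma 3.58.1, other scalings and filters, a log2 threshold of 0.5, marker covariates, a replicate block and each library left out. An offset for gene length and leaving out wild-type replicates 1 and 2 together were added after seeing the data.

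The 10 genes and all lists were chosen with earlier results of these data known. Named besides them were, from each pathway list, up to 3 called rises and 3 called falls and the most abundant gene, and from each marker list at most the 2 most abundant genes and genes near 0, with exceptions stated in the text. Some genes that the rule names are not reported here. With between 33359322 and 49523086 counts per library, each of the 10 genes had at least 232 counts in every library, so the spread between libraries, not counting error, limits their precision. Libraries of the same genotype all differed beyond sampling noise, and each was 1 replicate.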

Additional observations from a re-analysis of the deposited data

How the results depend on the processing

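*Bmp2*, *Bmp4* and *Id1* kept their direction and call under each of the 14 alternatives and in each of the 8 fits without 1 library, and *Bmp10* stayed uncalled and negative. Testing against a log2 change of 0.5 with glmTreat called 3 of the 10 genes, 2 higher and 1 lower, and 7 of the pathway genes, against 1220 of all 17163, and lost *Bmp5* (-1.22), *Id3* (0.89), *Smad6* (-0.37), *Smad7* (0.51) and *Tbx20* (-0.46). *Bmp5* also lost its call with limma-voom (-1.12). *Smad6* lost it with upper-quartile scaling (-0.28) and without the filter (-0.38), and its exact permutation p was 0.0571 with upper-quartile scaling (difference -0.27) and with library size alone (-0.42). *Tbx20* lost its call with upper-quartile scaling (-0.38), the foregut covariate (-0.34), the length offset (-0.39) and without wild-type replicates 1 and 2 (-0.49), and *Smad7* with the foregut covariate (0.51). *Bmp7* turned negative with library size alone (-0.026, permutation difference -0.0175), the foregut covariate (-0.17) and the endothelial covariate (-0.16), and *Id2* positive with the same covariates (0.60 and 0.28). The length offset left 2 genes called with a log2 change of at least 1, against 4 (10.8% of all genes without the offset). The cause was not tested for any of these. Without 1 library at a time, the range was -1.50 to -0.91 for *Bmp5*, -0.023 to 0.141 for *Bmp7*, -0.32 to 0.023 for *Id2*, -0.45 to -0.30 for *Smad6* and -0.55 to -0.36 for *Tbx20*, the genes called lower numbered 1 to 3, those past a log2 change of 1 numbered 2 to 5, and the pathway genes called numbered 13 to 25. The replicate numbers did not pair the libraries (same-number correlations of deviations from -0.268 to 0.338), and with a replicate block 1 gene was called lower, *Bmp5* at -1.12 (adjusted p = 0.0599) and *Smad6* at -0.36 (adjusted p = 0.0909) being lost.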
